A study of Homo sapiens with 8 samples.

Results

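Expression of 10 genes of matrix turnover was followed through the 8 RNA-seq libraries of the series, namely the matrix metalloproteinases (MMPs) MMP1, MMP2, MMP7, MMP9, MMP10, MMP13 and MMP14 and the tissue inhibitors of metalloproteinases (TIMPs) TIMP1, TIMP2 and TIMP3. The 10 genes were taken by name, in a choice made with earlier results of these data known, and each was listed in both deposited tables, which hold 26360 genes in common. All libraries came from Kyse510, an established human cell line of esophageal squamous cell carcinoma (ESCC). In the inhibitor table, cells received vehicle (DMSO), 7 µM SP2509, 7 µM UNC0642, or SP2509 and UNC0642 together for 2 days. SP2509 inhibits LSD1, the demethylase encoded by KDM1A, and UNC0642 inhibits G9a, the methyltransferase encoded by EHMT2. No separate dose is given for the combination, and the same doses were assumed. In the knockdown table, cells carrying a lentiviral shLSD1 or shG9a hairpin under a doxycycline (Dox) switch, selected with puromycin for 14 days, were left without Dox or were given Dox for 2 days. All 4 knockdown libraries thus carried a construct, and the control of each was the same line without Dox rather than a line with a nonsilencing hairpin. Each condition was represented by 1 library, so no difference below has a replicate check. Every comparison is between libraries, and every interval covers counting error only.

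MMPs are zinc-dependent endopeptidases that are made as inactive precursors and cleave collagens, laminins, fibronectin and other proteins outside the cell. TIMPs bind the active site of MMPs and block it, and the balance between both families helps to set how much matrix is cleaved. In squamous carcinomas, collagenases, stromelysins and matrilysin are known to be made by the tumor cells themselves, whereas MMP2 and MMP9 come largely from stromal and inflammatory cells. LSD1 removes methyl groups from histone H3 and G9a adds them, and both enzymes are known mainly as parts of repressor complexes.

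Promoter sequences are shown for MMP7, MMP10, TIMP1 and TIMP3, because these genes were called in different comparisons below. Factors known to bind MMP promoters are counted further below, and a link between their calls and those of the members was not tested. RefSeq windows were found for 5 of the 10 members (MMP7, MMP10, MMP14, TIMP1 and TIMP3) on build GRCh38.p14. For each gene shown, the 200 bases before the RefSeq start are printed 5′ to 3′ on the strand of the gene. They lie at chr11:102530748-102530947 on the minus strand, chr11:102780629-102780828 on the minus strand, chrX:47582236-47582435 on the plus strand and chr22:32801505-32801704 on the plus strand. Capitals mark matches, on either strand, to the AP-1 site TGANTCA, the core promoter motif TATAAA, the ETS site AGGAAG or the Sp1 site GGGCGG.
MMP7: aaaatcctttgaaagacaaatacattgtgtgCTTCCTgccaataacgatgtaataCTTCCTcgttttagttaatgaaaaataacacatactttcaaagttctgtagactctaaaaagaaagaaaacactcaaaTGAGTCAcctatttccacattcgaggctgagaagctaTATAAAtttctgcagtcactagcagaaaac
MMP10: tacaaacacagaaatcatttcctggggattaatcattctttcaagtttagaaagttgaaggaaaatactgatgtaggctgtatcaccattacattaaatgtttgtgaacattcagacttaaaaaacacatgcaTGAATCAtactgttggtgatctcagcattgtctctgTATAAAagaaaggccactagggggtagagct
TIMP1: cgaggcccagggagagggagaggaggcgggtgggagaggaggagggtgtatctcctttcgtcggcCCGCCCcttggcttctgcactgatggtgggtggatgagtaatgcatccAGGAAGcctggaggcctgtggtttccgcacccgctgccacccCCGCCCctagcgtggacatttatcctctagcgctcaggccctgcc
TIMP3: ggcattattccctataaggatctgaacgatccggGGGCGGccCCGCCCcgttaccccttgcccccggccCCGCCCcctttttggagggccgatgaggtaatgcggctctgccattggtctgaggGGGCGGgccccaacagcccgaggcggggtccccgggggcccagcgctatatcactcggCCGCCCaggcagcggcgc
No marked matches overlapped. The TIMP1 window runs past base 47582313, where the gene starts in the expression data, so part of it lies within the gene as listed there. The windows of MMP7 and TIMP3 pass the listed starts by a few bases. MMP7 and MMP10, which lie in the same cluster on chromosome 11, both held TGANTCA at bases -67 to -61 from the start, followed by TATAAA from base -30 in MMP7 and base -31 in MMP10. MMP7 also held AGGAAG 2 times. TIMP1 held GGGCGG 2 times and AGGAAG 1 time, and TIMP3 held GGGCGG 5 times. Over all 35116 promoter windows of 300 bases, TGANTCA was found in 7.71%, TATAAA in 11.5%, both of these in 1.31%, AGGAAG in 33.6% and GGGCGG in 45.0%. The GC content of the whole 300-base window was 35.7% for MMP7 and 36.3% for MMP10, compared to 65.0% for TIMP1, 72.7% for TIMP3 and a median of 58.7% over all windows. These matches describe the letters of the reference and are not evidence of binding.

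Expression is given as FPKM, fragments counted per gene after division by gene length and library size, which allows levels to be compared between genes. Library totals recovered from the FPKM steps were between 15662035 and 17889466 reads, and whole reads could be assigned to all 10 members. A gene entered a comparison when it reached 1 FPKM in at least 1 of the 2 libraries, and it was called when its fold change, computed on FPKM + 1, was at least 1.3 in either direction. KDM1A was lower with Dox in the shLSD1 line (6.29 FPKM, compared to 26.0 without Dox), and EHMT2 was lower with Dox in the shG9a line (4.76 FPKM, compared to 7.85). Squamous epithelial markers reached 1 FPKM for 8 or 9 of 9 genes in every library, but their levels differed in both directions. With both inhibitors KRT5 was at 163 FPKM compared to 427 with vehicle, and SOX2 at 0.636 compared to 18.3. KRT6A was at 16.1 FPKM compared to 0.676. Of the fibroblast list, 4 or 5 of 6 genes were listed, and their summed level ranged from 0.103 to 1.82 FPKM over the 8 libraries. The leukocyte list of 5 genes summed to between 0.971 and 10.1 FPKM, most of it CSF1R, ITGAM and CD14. The highest sum was with both inhibitors, where CSF1R was at 7.35 FPKM compared to 0.384 with vehicle. The endothelial list of 4 genes summed to between 3.56 and 14.5 FPKM, most of it CDH5, while PECAM1 reached at most 0.569 and KDR at most 0.0284 FPKM. PTPRC, the defining gene of leukocytes, reached at most 0.0425 FPKM. The part of CSF1R, ITGAM, CD14 and CDH5 in the results was not tested. In bulk RNA, fewer cells expressing a gene and less RNA per cell cannot be told apart.

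The uninduced lines served as a yardstick, because the shLSD1 and shG9a lines without Dox differ in the hairpin they carry but were not induced. Neither library received Dox, and no line with a nonsilencing hairpin was given Dox. An effect of Dox itself, which both induced lines share, was therefore not tested. Between these libraries 0 of the 5 members that passed the filter were called, against a background of 3.04% of 12449 genes higher and 4.51% lower in the shG9a line. TIMP3 came nearest, at 33.8 FPKM in the shG9a line and 43.6 FPKM in the shLSD1 line (log2 fold change -0.36). MMP7 was at 3.41 and 2.52 FPKM (log2 fold change 0.32).

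With SP2509, 4 of the 10 members were upregulated and 0 downregulated. MMP2, MMP7, TIMP1 and TIMP2 rose, TIMP3 passed the filter without a call, and MMP1, MMP9, MMP10, MMP13 and MMP14 stayed under 1 FPKM in both libraries. Over all 13342 genes tested, 21.0% rose and 39.9% fell, and 4 of the 5 members that passed rose. Of the 4, MMP2 passed the filter only through the treated library.

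With UNC0642, 4 members were also upregulated and 0 downregulated, and here the proteases were MMP1 and MMP2 while the inhibitors were again TIMP1 and TIMP2. MMP7 and TIMP3 passed the filter without a call, and 4 members stayed under 1 FPKM. The background was 18.2% of 13244 genes up and 16.9% down. MMP1 and MMP2 passed only through the treated library. SP2509 and UNC0642 were compared with the same vehicle library, so their agreement on MMP2, TIMP1 and TIMP2 is not independent.

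With both inhibitors, 7 members were called up and 0 down: MMP1, MMP2, MMP7, MMP10 and all 3 TIMPs. MMP9, MMP13 and MMP14 stayed under 1 FPKM. Over 13907 genes, 31.4% rose and 31.7% fell. MMP1, MMP2 and MMP10 passed the filter only through the treated library, so the count of 7 cannot be set against the background as it stands. The 4 members at or above 1 FPKM with vehicle (MMP7, TIMP1, TIMP2 and TIMP3) all rose.

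With Dox in the shLSD1 line, MMP7, TIMP1 and TIMP2 rose, as they did with SP2509, TIMP3 fell, and MMP14 passed the filter, through the library without Dox alone, and was not called. The background was 24.8% of 12970 genes up and 12.3% down. With Dox in the shG9a line, 0 members rose and 2 fell, namely MMP7 and TIMP3, with TIMP1 and TIMP2 not called and 6 members under 1 FPKM. The background there was 32.9% of 13080 genes up and 17.6% down.

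**Figure D1:**
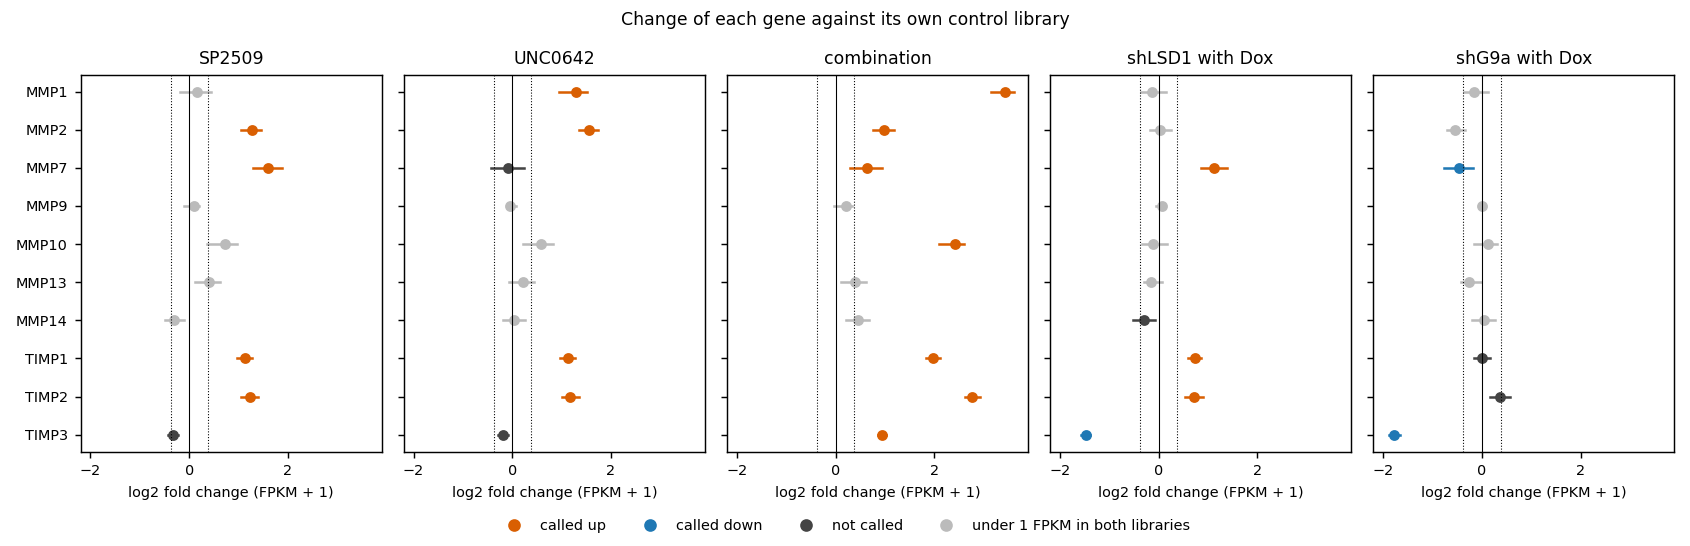
Change of each member against its own control library in the 5 comparisons, as log2 fold change of FPKM + 1 on the horizontal axis. Points are single differences between 2 libraries, bars are 95% intervals from read counts, dotted lines mark a fold of 1.3, and colors give the call. TIMP1 and TIMP2 lie to the right in the 3 inhibitor comparisons and in shLSD1, whereas TIMP3 lies far to the left in both knockdowns (-1.48 and -1.77) and to the right with both inhibitors (0.95).

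MMP1 (chr11:102789920-102798160), the interstitial collagenase that cleaves fibrillar collagen, had the largest change of the 10 members. It measured 0.259 FPKM in the vehicle library, 0.399 under SP2509, 2.07 under UNC0642 and 12.5 under both inhibitors, from 8, 14, 73 and 416 reads. The combination was 48.2-fold above vehicle in reads (95% interval 24.3 to 112) and UNC0642 was 7.99-fold above it (3.85 to 19.2). With SP2509 alone the interval of the ratio, 0.603 to 4.24, included no change. In the knockdown libraries MMP1 was near the limit of detection in all 4, at 0.257 and 0.145 FPKM without and with Dox in the shLSD1 line and at 0.246 and 0.117 FPKM in the shG9a line. The level with both inhibitors therefore lay far above the other 7 libraries, which ranged from 4 to 73 reads.

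MMP13 (chr11:102942995-102955734), the other collagenase among the members, was below 1 FPKM in every library. It measured 0.225 FPKM in the vehicle library, 0.614 under SP2509, 0.414 under UNC0642 and 0.606 under both. In reads, SP2509 was 2.73-fold above vehicle (1.3 to 6.24) and the combination 2.69-fold (1.27 to 6.19), on 10 reads with vehicle. In the knockdown libraries it measured 0.199 and 0.0806 FPKM without and with Dox in the shLSD1 line and 0.320 and 0.102 FPKM in the shG9a line. The shG9a ratio was 0.318 (0.0905 to 0.921), on 15 and 5 reads. None of these differences could be called under the filter.

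MMP10 (chr11:102770503-102780628, stromelysin-2), which degrades proteoglycans, laminin and fibronectin and can activate other MMP precursors, measured 0.182 FPKM in the vehicle library, 0.958 under SP2509, 0.763 under UNC0642 and 5.29 under both inhibitors. The reads were 5, 30, 24 and 157. With each inhibitor alone the read ratio already exceeded the counting error, at 5.28 (2.03 to 17.4) for SP2509 and 4.2 (1.57 to 14.1) for UNC0642, but neither library reached 1 FPKM and no call was possible. The combination did reach it, and MMP10 rose 29.1-fold (12.2 to 91.0). In the knockdown table it was at 0.224 and 0.130 FPKM in the shLSD1 line and 0.103 and 0.197 FPKM in the shG9a line, from 3 to 7 reads, and no difference was detectable at this depth.

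MMP7 (chr11:102520508-102530753, matrilysin), a small protease typical of epithelial cells that acts on matrix and on cell-surface proteins, had a different order. It measured 1.02 FPKM in the vehicle library, 5.08 under SP2509, 0.890 under UNC0642 and 2.12 under both inhibitors. It was 4.99-fold higher with SP2509 (3.51 to 7.29) and 2.08-fold higher with the combination (1.4 to 3.15), while the ratio with UNC0642 was 0.875 (0.540 to 1.42). MMP7 was thus higher with SP2509 alone than with both inhibitors, unlike MMP1 and MMP10. Dox in the shLSD1 line took it from 2.52 to 6.66 FPKM, which was 2.64-fold (2.10 to 3.35). It fell in the shG9a line, at 3.41 FPKM without and 2.19 with Dox, a ratio of 0.642 (0.484 to 0.847). Between the uninduced lines the ratio was 1.35 (1.04 to 1.77), and against the mean of both uninduced lines the fall with shG9a was no longer called (log2 fold change -0.32).

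MMP2 (chr16:55389700-55506691), the gelatinase that degrades type IV collagen and denatured collagen, rose with each inhibitor and rose least with both. It measured 0.906 FPKM in the vehicle library, 3.58 under SP2509, 4.57 under UNC0642 and 2.77 under the combination. The read ratios were 3.95 (3.04 to 5.19), 5.04 (3.9 to 6.59) and 3.06 (2.33 to 4.06). Without and with Dox, it was at 0.719 and 0.764 FPKM in the shLSD1 line. It was at 0.723 and 0.187 FPKM in the shG9a line, from 59 and 16 reads, a ratio of 0.259 (0.139 to 0.456). That difference exceeded the counting error but could not be called, because both libraries were under 1 FPKM.

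MMP9 (chr20:46008908-46016561), the other gelatinase, was close to undetected. It had 2 reads in the vehicle library, 5 under SP2509, 1 under UNC0642 and 9 under both inhibitors (0.0547, 0.120, 0.0239 and 0.228 FPKM). In the knockdown table it had 2 reads in the shLSD1 line with Dox and 0 in the other 3 libraries. At these 3 counts of 0, the upper 95% Poisson limit was 0.0889 FPKM in the shLSD1 line without Dox, 0.0955 FPKM in the shG9a line without Dox and 0.0912 FPKM in the shG9a line with Dox.

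MMP14 (chr14:22836557-22849027), the membrane-anchored protease that activates the MMP2 precursor on the cell surface, measured 0.458 FPKM in the vehicle library, 0.176 under SP2509, 0.501 under UNC0642 and 0.995 under both inhibitors. It was 1.07 and 0.678 FPKM without and with Dox in the shLSD1 line, and 0.921 and 0.970 FPKM in the shG9a line. The read ratio was 0.385 (0.190 to 0.742) for SP2509, 2.17 (1.42 to 3.40) for the combination and 0.632 (0.440 to 0.902) for shLSD1. The combination missed the filter by a small margin and shLSD1 passed it without a call, at a log2 fold change of -0.30. With a pseudocount of 0.1 FPKM that change was -0.59 and was called. Under the main settings MMP14 was called in 0 comparisons, although the interval of its ratio excluded 1 in 3 of them.

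**Figure D2:**
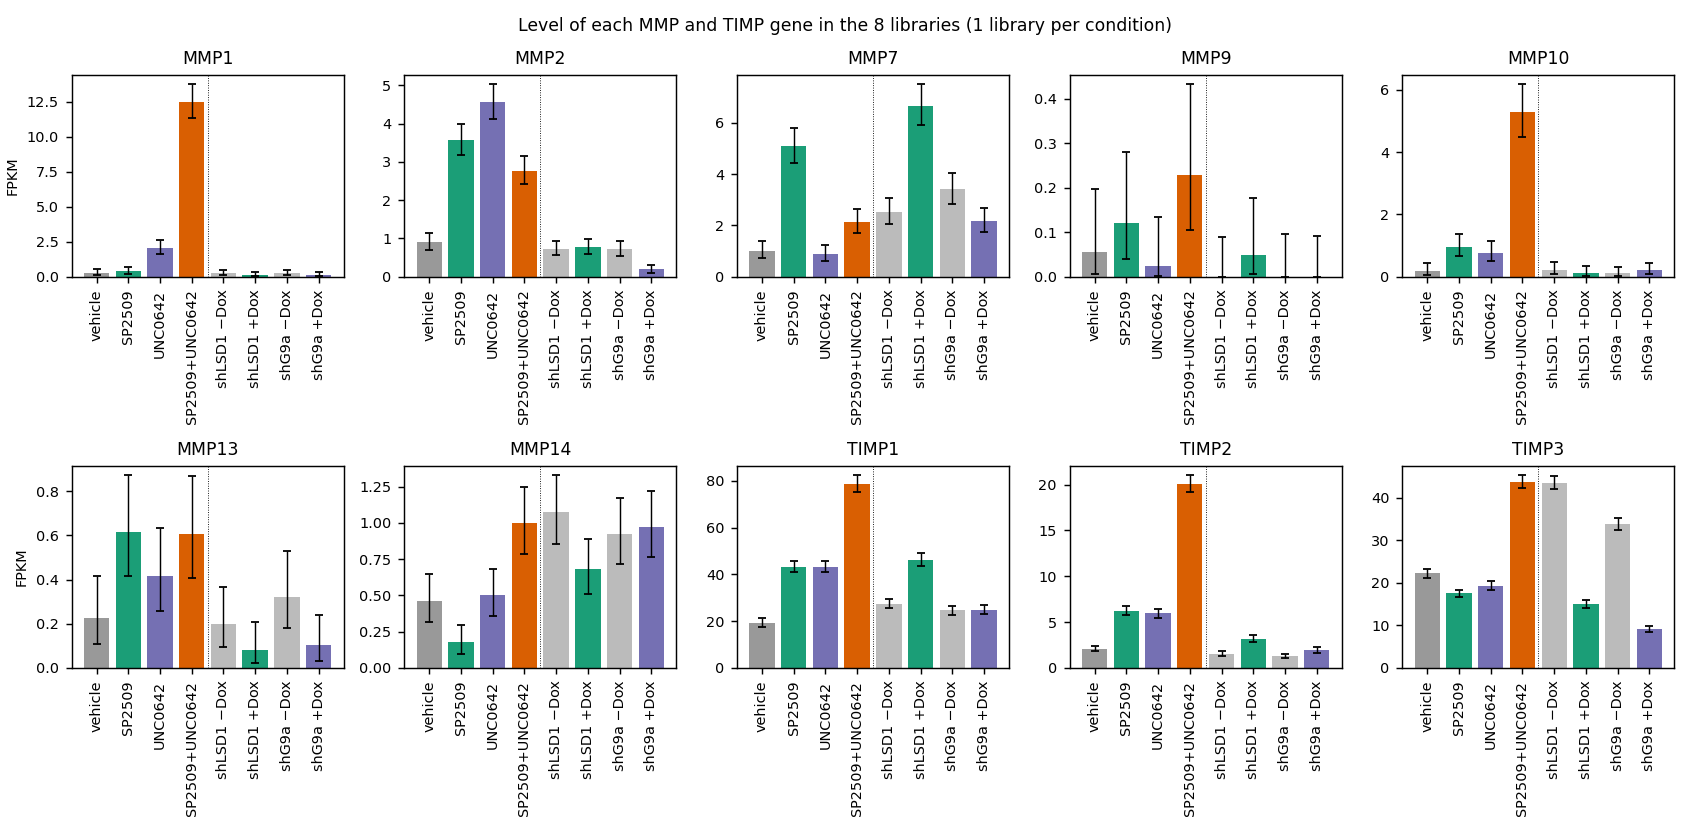
FPKM of each member (vertical axis, 1 panel a gene, each with its own scale) in the 4 inhibitor libraries and, right of the dotted line, the 4 knockdown libraries. Bars are the value of 1 library and error bars are 95% Poisson intervals of its reads. MMP1, MMP10, TIMP1 and TIMP2 are highest with both inhibitors, MMP2 is highest with UNC0642, and TIMP3 is low in both lines with Dox (15.0 and 9.21 FPKM).

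TIMP1 (chrX:47582313-47586789), a secreted inhibitor of most MMPs that is also known as a growth factor, was the highest member in 5 of the 8 libraries. It measured 19.3 FPKM in the vehicle library, 43.3 under SP2509, 43.3 under UNC0642 and 78.8 under both inhibitors. It was 2.24-fold higher with each inhibitor and 4.07-fold higher with the combination (3.68 to 4.51). The 95% Poisson intervals of the SP2509 and UNC0642 levels nearly coincided, at 40.8 to 45.8 FPKM and 40.9 to 45.8 FPKM. It also rose with Dox in the shLSD1 line, from 27.5 to 46.3 FPKM, 1.68-fold (1.54 to 1.85). The shG9a line had 24.7 FPKM without Dox and 24.8 with Dox, a ratio of 1.0 (0.898 to 1.12).

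TIMP2 (chr17:78852977-78925387), which inhibits MMP2 and also takes part in its activation by MMP14, measured 2.09 FPKM in the vehicle library, 6.22 under SP2509, 5.96 under UNC0642 and 20.1 under both inhibitors. The read ratios were 2.98 (2.53 to 3.54), 2.86 (2.42 to 3.39) and 9.63 (8.28 to 11.3), the largest of the 3 TIMPs in each inhibitor comparison. Dox in the shLSD1 line took it from 1.56 to 3.19 FPKM, 2.05-fold (1.68 to 2.50). It was at 1.27 and 1.94 FPKM in the shG9a line, a ratio of 1.53 (1.21 to 1.94) that lay just short of a call on the FPKM + 1 scale (log2 fold change 0.37). With a pseudocount of 0.1 FPKM it was called up (0.58).

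TIMP3 (chr22:32801701-32863043), which binds to the matrix and also inhibits ADAM proteases, was the only one of the 3 TIMPs to fall. It measured 22.2 FPKM in the vehicle library, 17.5 under SP2509, 19.4 under UNC0642 and 43.8 under both inhibitors. It was 1.97-fold higher with both (1.86 to 2.09), whereas neither inhibitor alone gave a call (log2 fold changes of -0.33 and -0.19). With Dox, TIMP3 fell in the shLSD1 line from 43.6 to 15.0 FPKM, 2.90-fold lower (2.72 to 3.10). It also fell in the shG9a line, at 33.8 FPKM without Dox and 9.21 with it, 3.68-fold lower (3.39 to 4.0). Both falls were larger than the 1.29-fold difference between the uninduced lines, neither of which received Dox. The levels without Dox lay above the vehicle level, but the 2 tables may have been normalized separately and the values are only set side by side.

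TIMP1 lies within SYN1 and TIMP3 within SYN3, both on the opposite strand, and whether the reads were counted by strand is not given in the sources used here. SYN1 reached at most 0.0775 FPKM and SYN3 at most 0.0435 FPKM in any library, compared to 9.21 FPKM or more for TIMP1 and TIMP3. WTAPP1, which overlaps MMP1 and MMP10 on the opposite strand, reached at most 0.115 FPKM, and no gene overlapping TIMP2 exceeded 0.238 FPKM.

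Summed over the 7 MMPs, expression was 3.10 FPKM in the vehicle library, 10.9 under SP2509, 9.23 under UNC0642 and 24.5 under both inhibitors. Over the 3 TIMPs it was 43.7, 67.0, 68.6 and 143 FPKM. Both sums were thus higher in each treated library than with vehicle, and the ratio of the MMP to the TIMP sum was 0.0710 with vehicle and 0.163, 0.134 and 0.172 under treatment. Without MMP7 and TIMP1, which dominate several libraries, it was 0.0858 with vehicle and 0.246, 0.329 and 0.351 under treatment. The protease behind the MMP sum differed, with MMP7 making up 46.5% of it under SP2509, MMP2 49.5% under UNC0642 and MMP1 51.0% under both. For shLSD1 the MMP sum was 4.99 FPKM without Dox and 8.51 with Dox, of which MMP7 was 78.3%, and the TIMP sum was 72.6 and 64.5 FPKM. For shG9a the MMP sum was 5.72 and 3.76 FPKM and the TIMP sum 59.8 and 35.9 FPKM. The MMP to TIMP ratio was 0.0687 and 0.132 in the shLSD1 line, and 0.0957 and 0.105 in the shG9a line. Without MMP7 and TIMP1 it was 0.0547 and 0.101 in the shLSD1 line, and 0.0659 and 0.141 in the shG9a line. These sums and ratios leave out MMP15, a membrane-type MMP that was not a member. In the shG9a line MMP15 rose from 6.42 FPKM without Dox to 14.2 with Dox, while the MMP sum fell. MMP15 exceeded the MMP sum with vehicle (4.22 FPKM), with UNC0642 (11.8 FPKM) and in every knockdown library. It was below the MMP sum with SP2509 (3.13 FPKM) and with both inhibitors (15.2 FPKM).

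The make-up of the TIMP sum shifted in the same direction in all 5 comparisons. TIMP3 was 50.9% of the sum with vehicle, and 26.1%, 28.2% and 30.7% with SP2509, UNC0642 and both. It was 60.0% and 23.3% without and with Dox in the shLSD1 line and 56.6% and 25.6% in the shG9a line. The ratio of TIMP1 to TIMP3 was accordingly 0.871 with vehicle and from 1.80 to 2.47 in the treated libraries, and it was 0.630 and 0.729 without Dox and 3.08 and 2.69 with Dox. The 3 inhibitor comparisons share the vehicle library. Under the inhibitors the shift came with a higher TIMP1 level, and in the shG9a line with a lower TIMP3 level beside a TIMP1 level that differed by less than counting error.

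**Figure D3:**
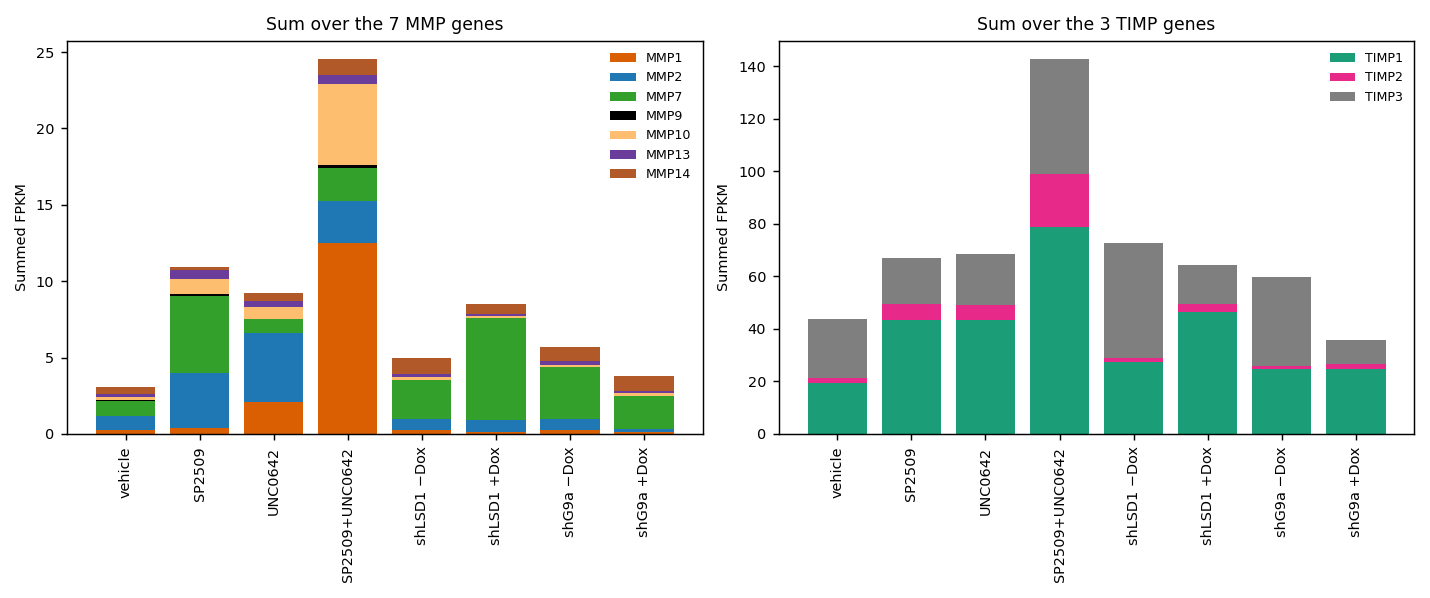
Summed FPKM of the 7 MMPs (left) and of the 3 TIMPs (right) in each library, with the share of each gene as a stacked segment. The vertical axes differ in scale. The MMP sum is highest with both inhibitors (24.5 FPKM), where MMP1 is the largest segment, and the TIMP3 segment is smaller in every treated library than in its control as a share of the sum.

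The effect of both inhibitors was set beside the sum of the log2 fold changes of each alone. MMP1 was 1.99 above the sum, TIMP3 1.46 above it and MMP10 1.11 above it, while MMP2 and MMP7 departed from it by -1.82 and -0.87. TIMP1 and TIMP2 lay close to the sum, at -0.27 and 0.37. The median over 14801 genes was 0.19. MMP13, MMP9 and MMP14 were under 1 FPKM in these libraries and are not read. A departure from the sum combines 4 libraries, of which the vehicle library enters each term, and for low genes it can depend on the pseudocount. With a pseudocount of 0.01 FPKM it was 1.99 for MMP1 and 1.52 for TIMP3, but 0.44 for MMP10 and -2.69 for MMP2.

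**Figure D4:**
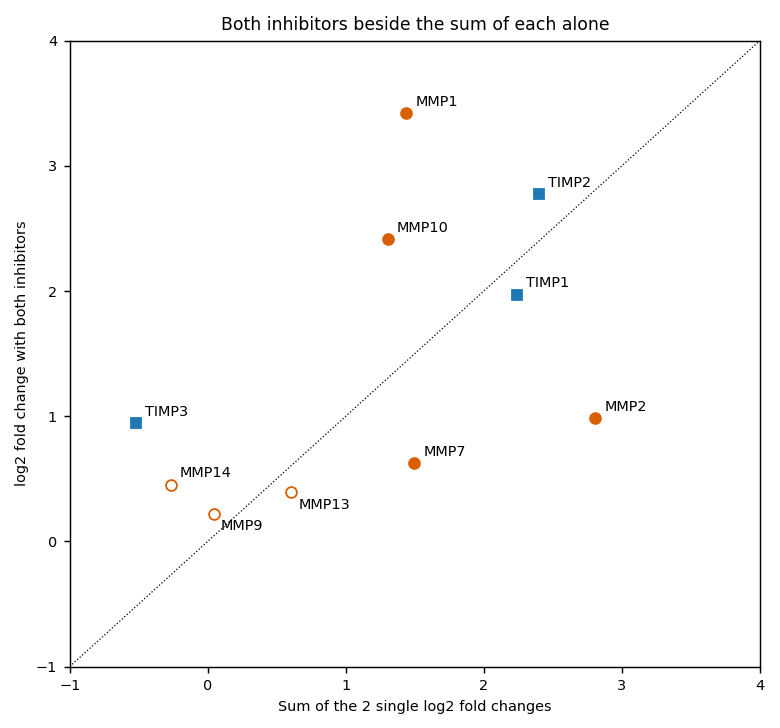
Log2 fold change with both inhibitors (vertical axis) beside the sum of the changes with each inhibitor alone (horizontal axis), with circles for MMPs, squares for TIMPs, and open symbols for genes under 1 FPKM. The dotted line marks equality. MMP1, MMP10 and TIMP3 lie above the line and MMP2 and MMP7 below it.

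MMP1, MMP7, MMP10 and MMP13 belong to a run of 9 MMP genes on chromosome 11 that spans 435 kb (GRCh38, 11:102520508-102955734), all on the minus strand. The order is MMP7, MMP20, MMP27, MMP8, MMP10, MMP1, MMP3, MMP12 and MMP13. With both inhibitors the 4 neighbors MMP10, MMP1, MMP3 and MMP12 rose. MMP3 (stromelysin-1) went from 0.0935 to 5.64 FPKM, on 3 and 195 reads, a ratio of 60.3 (20.3 to 295). MMP12 (macrophage elastase) went from 0.307 to 9.48 FPKM, on 9 and 300 reads, a ratio of 30.9 (16.1 to 68.3). The genes on either side of these 4 changed less on the FPKM + 1 scale and stayed under 1 FPKM. MMP8 was at 1 and 29 reads, a ratio of 26.9 (4.46 to 1099), which is not smaller than those of the 4 beyond counting error. MMP20 was at 2 and 14 reads, a ratio of 6.49 (1.49 to 58.9). MMP13 was at 10 and 29 reads, and MMP27 at 0 and 1 read. MMP7, at the other end of the cluster, had the highest log2 fold change of FPKM + 1 for SP2509, and for shLSD1 among the 7 genes with values there. For SP2509 the read ratio of MMP10 (5.28) was above that of MMP7 (4.99). In the knockdown libraries MMP3 had at most 4 reads and MMP12 at most 21, and none of the 4 neighbors reached 1 FPKM. MMP20 had 2 reads without Dox and 29 with Dox in the shG9a line, at 0.656 FPKM.

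**Figure D5:**
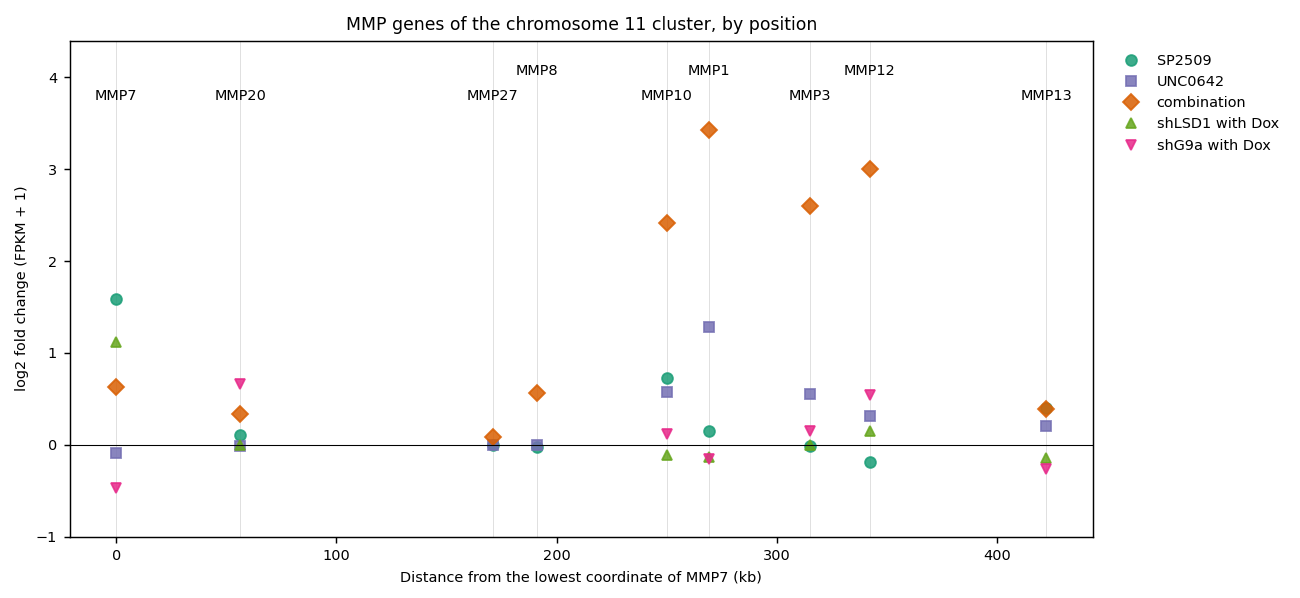
Log2 fold change of FPKM + 1 (vertical axis) for the 9 MMP genes of the chromosome 11 cluster in the 5 comparisons, placed by their distance in kb from the lowest coordinate of MMP7. MMP27 and MMP8 have no values in the knockdown table and so no points for the knockdowns. The orange diamonds (both inhibitors) are at 2.41 or more for MMP10, MMP1, MMP3 and MMP12 and at 0.63 or less for the other 5.

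Outside the members, a list of 17 genes was taken, made up of further MMPs and TIMP4. With SP2509, 2 of them passed the filter, and TIMP4 fell from 2.24 to 0.851 FPKM. With UNC0642, 2 passed, and MMP15, a membrane-type MMP, rose from 4.22 to 11.8 FPKM. With both inhibitors 5 passed, of which MMP12, MMP3 and MMP17 did so only through the treated library. All 5 rose, TIMP4 from 2.24 to 9.08 FPKM and MMP15 to 15.2 FPKM. Over all genes tested, 21.0% rose and 39.9% fell with SP2509, and 18.2% rose and 16.9% fell with UNC0642. With both inhibitors the shares were 31.4% and 31.7%. They were 24.8% and 12.3% for shLSD1 and 32.9% and 17.6% for shG9a. MMP15 also rose with Dox in the shLSD1 line (8.09 to 15.6 FPKM) and in the shG9a line (6.42 to 14.2 FPKM). It was the only MMP called up in both knockdowns. With Dox in the shLSD1 line TIMP4 rose and MMP28 fell. TIMP4 was listed at 0 in the shG9a line with Dox, compared to 1.58 FPKM without. No whole reads could be assigned to TIMP4, which lies within SYN2.

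MMP precursors are cut into active enzymes by serine proteases such as plasmin and furin, and plasmin is itself formed by the plasminogen activators PLAU (urokinase) and PLAT. Of 22 activators and inhibitors outside the TIMP family, 17 passed the filter with SP2509, with 8 up and 4 down, 16 with UNC0642, with 9 up and 2 down, and 17 with both, with 14 up and 1 down. The urokinase receptor PLAUR rose from 1.73 FPKM with vehicle to 24.9, 11.8 and 32.8 FPKM. With Dox, 3 of 16 were up and 4 down in the shLSD1 line, and 1 of 16 was up and 7 down in the shG9a line. For comparison with this and the following lists, the shares of all genes tested that were up and down were 21.0% and 39.9% for SP2509, 18.2% and 16.9% for UNC0642, 31.4% and 31.7% for both, 24.8% and 12.3% for shLSD1, and 32.9% and 17.6% for shG9a. For the activators and inhibitors the shares of genes passing the filter were 47.1% and 23.5%, 56.2% and 12.5%, 82.4% and 5.88%, 18.8% and 25.0%, and 6.25% and 43.8% in the same order. FURIN rose in both, at 14.5 FPKM without and 32.6 with Dox for shLSD1 and at 15.3 and 21.8 FPKM for shG9a. LCN2, which binds MMP9, fell with shG9a, where it was at 1127 FPKM without and 52.6 with Dox.

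The median log2 fold change of that list was 0.32, 0.46 and 0.96 for SP2509, UNC0642 and both, compared to -0.21, -0.01 and -0.02 over all genes tested. It was 0.14 and -0.15 for shLSD1 and shG9a, compared to 0.13 and 0.18.

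Transcription factors known to bind MMP promoters, a list of 29 led by AP-1, ETS and NF-κB members, were counted in the same way. As with the other lists, genes could pass the filter through the treated library alone, and the counts are descriptions. With SP2509, 16 of the 25 that passed rose and 1 fell, with UNC0642 13 of 25 rose and 1 fell, and with both 21 of 26 rose and 3 fell. The AP-1 member FOSL1 rose from 6.19 to 132, 78.9 and 148 FPKM. With Dox, 2 of 25 rose and 12 fell in the shLSD1 line, and 0 of 24 rose and 20 fell in the shG9a line. FOS was at 82.3 FPKM without and 5.96 with Dox for shLSD1, and at 83.4 and 2.60 FPKM for shG9a. JUN was at 84.3 and 20.2 FPKM for shLSD1 and at 102 and 11.4 FPKM for shG9a. The shares up and down were 64.0% and 4%, 52.0% and 4%, 80.8% and 11.5%, 8% and 48.0%, and 0% and 83.3% in the order given above. The list medians were 0.86, 0.46 and 0.97 for the inhibitors, compared to -0.21, -0.01 and -0.02 over all genes, and -0.33 and -0.69 for shLSD1 and shG9a, compared to 0.13 and 0.18.

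Matrix and junction proteins that MMPs cut were taken as the next list. Of 28 such substrates, 22 passed with 15 up and 3 down for SP2509, 21 with 9 up and 1 down for UNC0642, and 21 with 10 up and 6 down for both. FN1 (fibronectin) rose from 3.33 to 93.9 FPKM with SP2509 and to 25.2 FPKM with both. With both inhibitors COL5A2 fell from 17.8 to 3.47 FPKM. In the knockdowns 1 rose and 6 fell of 20 for shLSD1, and 4 rose and 8 fell of 20 for shG9a. The shares up and down were 68.2% and 13.6%, 42.9% and 4.76%, 47.6% and 28.6%, 5% and 30.0%, and 20% and 40.0% in the order given above. The list medians were 0.89, 0.24, 0.23, -0.14 and -0.20, compared to -0.21, -0.01, -0.02, 0.13 and 0.18 over all genes tested.

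ADAM and ADAMTS proteases, relatives of the MMPs that TIMP3 also inhibits, gave calls in both directions. Of 21 genes, 8 passed with 5 up and 1 down for SP2509, 8 with 4 up and 0 down for UNC0642, and 9 with 4 up and 1 down for both. ADAMTS1 rose from 0.615 to 12.7 FPKM with SP2509, ADAM12 from 1.54 to 5.58 FPKM with UNC0642, and ADAM8 from 0.414 to 3.56 FPKM with both. With Dox, 2 of 9 rose and 3 fell for shLSD1, and for shG9a 1 of 8 rose and 4 fell. ADAM19 fell in both, at 3.82 FPKM without and 1.36 with Dox for shLSD1 and at 2.62 and 0.929 FPKM for shG9a. The shares up and down were 62.5% and 12.5%, 50% and 0%, 44.4% and 11.1%, 22.2% and 33.3%, and 12.5% and 50%. The list medians were 0.49, 0.38, 0.31, 0.08 and -0.22, beside the same medians over all genes.

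The genes most like each of 6 members (MMP1, MMP10, MMP14 and the 3 TIMPs) were found by the root mean square difference of the 5 log2 fold changes, over 9043 genes that reached 5 FPKM in at least 1 library. For MMP1 they were LINC02178 (0.23) and LYPD3 (0.24), for MMP10 NEU1 (0.22) and PPARD (0.23), and for MMP14 CTR9 (0.08) and CSNK2A1 (0.10). For TIMP1 they were ELOVL7 (0.25) and GALNT12 (0.27), for TIMP2 PPIF (0.26) and ISG15 (0.31), and for TIMP3 MIR210 (0.22) and NXPH4 (0.37). MIR210 had log2 fold changes of 0 with SP2509 and UNC0642, where it was listed at 0 as with vehicle, of 1.05 with both inhibitors, and of -1.22 and -1.66 with Dox in the shLSD1 and shG9a lines. MMP13 never reached 1 FPKM and was not compared, and MMP2, MMP7 and MMP9 were not in the rule for this search. The likeness rests on 5 differences, 3 of which share a library. It was computed on FPKM + 1, which draws the changes of genes near or under 1 FPKM toward 0. For MMP14 with SP2509, a read ratio of 0.385 became a log2 fold change of -0.31. MMP1 and MMP10 were near the limit of detection in the knockdown libraries. Likeness to these 3 members can therefore reflect their low level. The match of MIR210 to TIMP3 rests in part on libraries where MIR210 was listed at 0. The reads behind its other values are not given, so their counting error is not known here.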

How the data were processed

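Paired-end RNA-seq (reads of 150 bases) was done on 8 libraries of Kyse510 cells. The authors mapped reads to GRCh38 (annotation 87) and deposited FPKM values in 2 tables. The aligner, the counting tool and the use of strand are not given in the sources used here. Library totals were recovered from the steps of the FPKM values in genes with 1 exon, and reads per gene as the smallest whole numbers fitting all values, which gave 98.4% to 98.7% of the totals. This procedure was tested on simulated data. Fold changes were computed on FPKM + 1, with a minimum of 1 FPKM in 1 of the 2 libraries and a fold threshold of 1.3 and no test across genes. Intervals at 95% are exact binomial (ratios) or Poisson (levels). Each treated library was compared with its own control. Named were all members, KDM1A and EHMT2, the most changed called genes of each list (up to 3), the 2 genes most like each of 6 members, and MMP family neighbors within 1 Mb. Values of FURIN for shG9a and of MMP15 for the combination and beside the MMP sums fall outside that rule and were added after they were seen. Some genes that the rule names are not reported here. The members and lists were chosen with earlier results of these data known. Alternatives are listed in the closing section. Python 3.11.15, pandas 2.3.3 and scipy 1.17.1 were used.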

Additional observations from a re-analysis of the deposited data

Results flagged for a closer look

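MMP7 and TIMP4 moved in opposite directions with Dox in the 2 knockdown lines. The log2 fold change of MMP7 was 1.12 in the shLSD1 line and -0.47 in the shG9a line, and that of TIMP4 was 0.66 in the shLSD1 line and -1.36 in the shG9a line. With 1 library per condition, the difference between the lines was not tested. The fall of MMP7 in the shG9a line was no longer called against the mean of both uninduced lines (-0.32) or at a fold of 2. No whole reads could be assigned to TIMP4, so its values have no counting interval.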

How the results depend on the processing

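The alternatives were pseudocounts of 0.1 and 0.01, no filter, a minimum of 5 FPKM, a fold of 2, centring on the median of genes at 5 FPKM or more in both libraries, scaling by a trimmed mean of the ratios (TMM), a fold together with an exact binomial p under 0.05, and the mean of the 2 uninduced lines as control. No called member changed sign under these alternatives. Of the counts of members called, 72 stayed within 1.5 times the main count and 12 did not. The 72 include counts of 0 that stayed at 0, such as members down with SP2509. They also include counts that differed, such as 4 members up with SP2509 in the main setting and 6 without a filter. With UNC0642, TIMP1 and TIMP2 were still called up at a minimum of 5 FPKM, a level that MMP1 and MMP2 did not reach. At a fold of 2, 4 members rose with both inhibitors, beside 1811 of 13907 genes, and in the shLSD1 line only MMP7 was still called up. The shares over all genes given in the results hold for the main settings only, so the counts at other settings are descriptions. In the shLSD1 line MMP14 was called down beside TIMP3 with either other pseudocount, with centring and with TMM. In the shG9a line TIMP2 was called up with a pseudocount of 0.1 or 0.01. There TIMP3 alone was called down at a minimum of 5 FPKM, at a fold of 2 and against the mean of the uninduced lines. The trimmed mean shifted ratios by -0.27 for SP2509, 0.15 for shLSD1 and 0.23 for shG9a. Without MMP7 and TIMP1, the ratio of summed MMPs to TIMPs was 0.0858 with vehicle, 0.246 with SP2509, 0.329 with UNC0642, 0.351 with both, 0.0547 and 0.101 without and with Dox in the shLSD1 line, and 0.0659 and 0.141 in the shG9a line. No paired analysis was possible because each condition had 1 library. No replicate could be left out for the same reason.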
